A study of Mus musculus with 2 samples.

Results

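Ribosomal protein pseudogenes are copies of the genes for the cytosolic ribosome's proteins. The 300 members described here are the genes, of 55536 annotated in the mouse, whose symbol starts with Rpl or Rps and ends in -ps with or without a number. Of these, 189 are named after proteins of the large ribosomal subunit (Rpl) and 111 after proteins of the small subunit (Rps). The annotation, GENCODE M21 on the mm10 build, classes 287 of them as processed pseudogenes, 7 as transcribed processed pseudogenes and 6 as protein-coding. The 6 classed as protein-coding in spite of the symbol are Rpl10-ps3, Rpl36-ps4, Rpl36a-ps1, Rpl9-ps1, Rpl9-ps6 and Rps12-ps3.

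A processed pseudogene arises when a messenger RNA is reverse transcribed and the DNA copy is inserted elsewhere in the genome, which in mammals is done by the enzymes of LINE-1 elements. The copy therefore lacks the introns and the promoter of its parent gene, and over time it gathers substitutions. Ribosomal protein messenger RNAs are short and abundant in nearly every cell, and they have left more such copies than most other genes. A recent copy reads almost letter for letter like the parent's messenger RNA, so short sequencing reads from either can fit both.

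Total RNA was measured in the hearts of female B6CASTF1/J mice, the F1 offspring of C57BL/6J and CAST/EiJ parents, at 4 days of age. There are 2 libraries of this single group, here called replicate 1 and replicate 2, each made from 300 ng of RNA by a stranded protocol that reduces ribosomal RNA and adds ERCC spike-in RNAs. The labels give separate biological replicate numbers but one donor identifier, so the spread given is that between 2 libraries, and no p-value was computed. Each library was quantified in a gene table, with estimated (expected) counts, TPM (a level per transcript length, scaled to the same sum in every library) and a posterior SD of the count, and again in a table with the column layout of kallisto, summed here per gene. The heart's muscle genes were high in both libraries, with Myh6 at 7039 and 6860 TPM and Tnnt2 at 2963 and 3239. Beta-globin Hbb-bs stood at 5746 TPM in replicate 1 and 68.9 in replicate 2, and whether this difference in red cell RNA touches any member was not tested.

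The members' sequences were compared first with those of their parents. Of the 298 members whose parent has an annotated coding sequence, 294 aligned to it over at least 100 bases, with a median identity of 97.0% (quartiles 92.5% and 98.9%, lowest 77.5%). Of the other 4, 1 matched the parent only on the opposite strand and 3 on neither strand. These 4 are members by symbol alone. A complete match over the aligned bases was found in 15 members, of which 12 covered the whole coding sequence. An open reading frame of the parent's full length remained in 98 members. The cases on which the results turn are printed here as 100 bases of the parent's coding sequence beside the same bases of the copy, 5′ to 3′ and taken from the GENCODE M21 transcripts, with capitals marking the bases that differ within a set. Each set shows the gap-free stretch with the most differences, so no other such stretch in the set differs more. The first set shows Rps12, a protein of the small subunit, with a copy that has no difference from it in these bases and a copy that has 2.
Rps12: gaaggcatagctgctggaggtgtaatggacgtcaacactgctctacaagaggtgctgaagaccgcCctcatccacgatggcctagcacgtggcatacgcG
Rps12-ps3: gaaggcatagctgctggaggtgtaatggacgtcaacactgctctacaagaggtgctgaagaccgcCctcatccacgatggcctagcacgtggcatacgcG
Rps12-ps10: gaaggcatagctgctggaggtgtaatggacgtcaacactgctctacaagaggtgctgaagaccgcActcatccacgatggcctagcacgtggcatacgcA
Rps12-ps3 lies at chr19:59322290-59322783 (plus strand), in an intron of Pdzd8 on the other strand, and Rps12-ps10 lies between genes at chr2:122219993-122220391 (plus strand). The next pair shows Rps23, a small-subunit protein of the decoding site, and Rps23-ps1 at chr3:37714740-37715164 (plus strand), over an exon of Gm5148 on the other strand, where the letters are the same throughout.
Rps23: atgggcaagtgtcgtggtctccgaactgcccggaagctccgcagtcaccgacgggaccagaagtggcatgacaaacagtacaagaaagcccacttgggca
Rps23-ps1: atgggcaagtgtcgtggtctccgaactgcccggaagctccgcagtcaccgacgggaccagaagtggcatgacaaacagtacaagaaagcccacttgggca
Rps15 and Rps15-ps2, which lies between genes at chr6:58017506-58017943 (plus strand), differ at 6 of these bases.
Rps15: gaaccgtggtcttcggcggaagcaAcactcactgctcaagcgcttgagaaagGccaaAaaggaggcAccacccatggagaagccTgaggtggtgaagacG
Rps15-ps2: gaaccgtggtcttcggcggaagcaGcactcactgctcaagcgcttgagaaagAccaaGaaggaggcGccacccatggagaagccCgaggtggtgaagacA
Rpl19-ps11 lies at chr8:19492936-19493526 (plus strand) and overlaps an exon of Gm27288 on the same strand. It differs from Rpl19, a large-subunit protein, at 1 base here and at 1 base in the whole coding sequence.
Rpl19: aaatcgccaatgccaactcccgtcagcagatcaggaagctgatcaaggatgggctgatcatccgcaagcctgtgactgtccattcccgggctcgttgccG
Rpl19-ps11: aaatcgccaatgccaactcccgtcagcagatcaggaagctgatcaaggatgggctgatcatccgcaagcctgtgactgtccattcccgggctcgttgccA
Rpl35a, also of the large subunit, and Rpl35a-ps2, which lies between genes at chr1:181241988-181242320 (minus strand), differ at 1 base.
Rpl35a: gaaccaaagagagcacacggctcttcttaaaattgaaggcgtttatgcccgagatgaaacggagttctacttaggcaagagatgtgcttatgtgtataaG
Rpl35a-ps2: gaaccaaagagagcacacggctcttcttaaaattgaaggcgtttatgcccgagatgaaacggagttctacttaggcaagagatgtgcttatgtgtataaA

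To put a number on this for every member, each stretch of 100 bases along its annotated transcripts was looked up in the transcripts of all other genes, on the same strand. The median member had 90.3% of its 100-base windows to itself, but only 39.7% of its 31-base windows. In 31 members no 100-base window was their own, and in 13 of these every window was found in the parent. A further 48 members had a share above 0 and under 50%, 71 had from 50% to under 90%, and 150 had 90% or more.

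The members fall into 62 families by the parent that their symbol names, and 61 of these parents were found in the annotation. The largest families are those of Rpl31 and Rps12 with 24 members each, Rpl21 with 15, and Rpl23a and Rps19 with 14 each, while 19 parents have a single member. Of a list of 79 cytosolic ribosomal protein genes, 59 have a member and 20 have none. Members lie on 20 chromosomes, most often on X with 35, and 13 of the 299 with a located parent share its chromosome. Between other genes lie 207 members, 56 in an intron on the other strand, 26 in an intron on the same strand, 7 over a same-strand exon and 4 over an opposite-strand exon. Their transcripts are short, with a median of 459.5 nt (151 to 1758 nt) and 100 of them under 400 nt.

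In the gene table, 147 members (49.0%) had 0 counts in both hearts, against 78.0% of the 13231 other annotated pseudogenes and 52.1% of all genes. A listed 0 was not always matched by the posterior mean count. Of the 147, 4 had posterior mean counts above 3 in both hearts, up to 21.8 and 24.1, and the reason was not tested. By counting error alone, 3 counts could lie behind a listed 0, or 0.0829 CPM (a count scaled to the library total) in replicate 1 and 0.0923 CPM in replicate 2. In both hearts 49 members (16.3%) reached a TPM of 1 or more, against 3.89% of the other pseudogenes and 24.1% of all genes. So did 5.57% of the 1256 other genes with a -ps symbol and 61 of 61 parents. By mean TPM, 13 members stood at 100 or more, 24 between 10 and 100, 17 between 1 and 10, and 99 above 0 but under 1. All members together held 53493 and 46941 counts in replicates 1 and 2, which is 0.146% ± 0.00246 (SD, n = 2) of all counts. For scale, all 79 listed ribosomal protein genes exceeded a TPM of 1, from 31.7 to 1072 with a median of 349, so the highest pseudogenes were listed at levels within the range of the working genes.

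In the kallisto-layout table the same libraries gave the members 20212 and 17932 counts, 0.0553% ± 0.000900 of the total. Only 20 members (6.67%) reached a TPM of 1 in both hearts there, against 3.62% of the other pseudogenes and 25.5% of all genes. Of the 20, 15 also did so in the gene table. The parents moved the other way, from 288607 and 251966 counts in the gene table to 308854 and 271601. Of the counts on members and parents together, members held 15.7% ± 0.0477 in the gene table and 6.17% ± 0.0361 in the kallisto-layout table. Both quantifications were thus stable between the hearts and apart from each other. TPM values of single members cannot be set side by side across the tables, because the effective length (the length over which reads can start) had a median of 360.5 nt over members in the gene table and 139 and 140 nt in the other. Differences between the tables are therefore given on counts.

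The level of the members rested on few of them, and on different ones in each table. In the gene table the 10 members of highest TPM held 67.9% of all member counts, and in the kallisto-layout table its own 10 highest held 93.3%. These 10 and 10 shared 3 members, Rps2-ps13, Rps13-ps1 and Rpl3-ps1. Of the gene table's 10 highest, 6 had every 100-base window in the parent, and 6 had under 0.5 counts in both hearts in the other table.

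**Figure D1:**
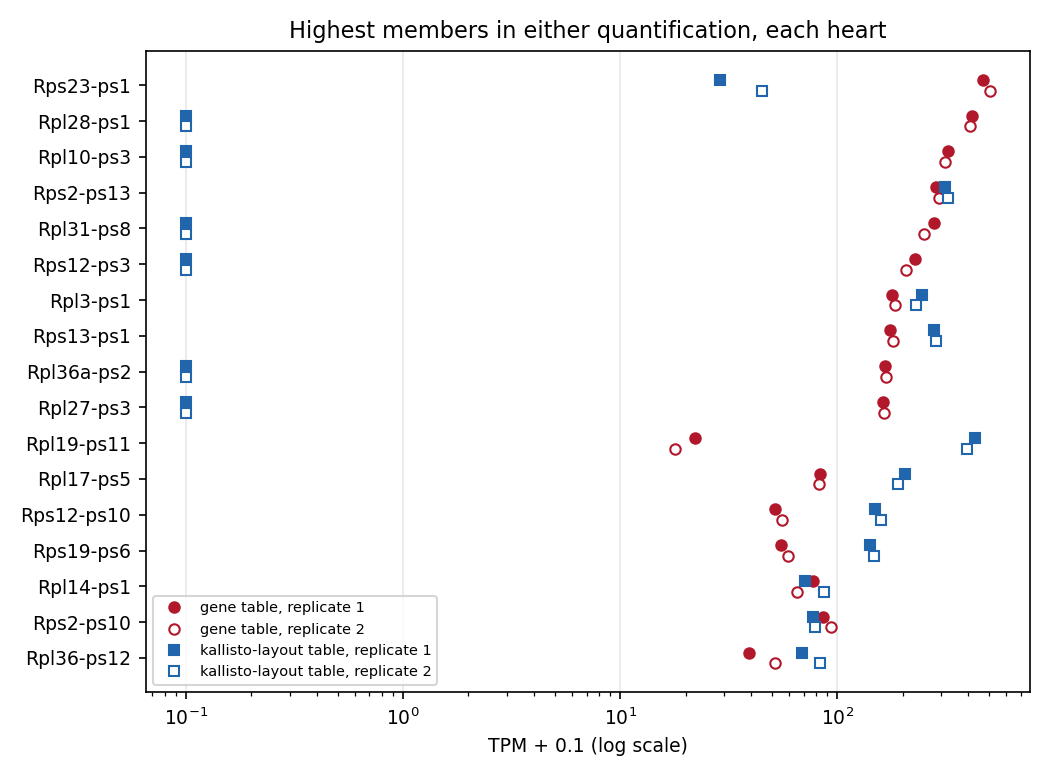
Level of the 10 highest members of each quantification (17 genes in all), as TPM + 0.1 on a log scale, with circles for the gene table and squares for the kallisto-layout table, filled for replicate 1 and open for replicate 2. The replicates of one table lie close together, while Rpl28-ps1, Rpl10-ps3, Rpl31-ps8, Rps12-ps3, Rpl36a-ps2 and Rpl27-ps3 lie above 160 TPM in the gene table and at 0 in the other, and Rpl19-ps11 lies at 22.1 and 17.7 TPM in the gene table and at 432 and 395 in the other. TPM is not on the same effective length in the 2 tables.

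Among the copies of small-subunit genes, Rps23-ps1 was the highest of all members in the gene table, at 468 and 502 TPM from 4279 and 4020 counts. In the kallisto-layout table it had 87.9 and 122 counts. Its parent Rps23 showed the reverse, with 1524 and 1289 counts in the gene table and 5898 and 5354 in the other. The copy printed above thus stood above its parent in both hearts in one table and far below it in the other.

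Rps12-ps3 had 2535 and 2006 counts in the gene table, or 229 and 207 TPM, and 0 counts in both hearts in the kallisto-layout table. Rps12-ps10, which differs from Rps12 at 4 bases of the coding sequence and has 90.7% of its 100-base windows to itself, had 436 and 407 counts in the gene table and 399 and 382 in the other. Of these copies of one parent, the identical one was listed in a single table and the one with its own bases was listed alike in both. On the TPM scale Rps12-ps10 read 51.7 and 55.3 in the gene table and 149 and 159 in the kallisto-layout table, a gap that lies in the effective lengths and not in the counts.

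Rps2-ps13, a copy on chromosome X of the gene for a protein near the messenger RNA entry site, was high in both tables, with 6256 and 5672 counts in the gene table and 4375 and 4025 in the other. Rps13-ps1 on chromosome 8 likewise had 2159 and 1941 counts against 1451 and 1322. Rps2-ps10, with 2079 and 1983 counts against 1239 and 1125, and Rps19-ps6, with 524 and 492 against 459 and 430, complete the small-subunit copies that led the kallisto-layout table besides Rps12-ps10. All 4 were lower in the kallisto-layout table in both hearts, by less than 4-fold.

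Among the copies of large-subunit genes, Rpl10-ps3 had the widest gap toward the gene table. Rpl10 is a protein that joins the large subunit at a late step of its assembly, and this copy on chromosome 9 matches its coding sequence in full. It had 6080 and 5146 counts in the gene table, or 324 and 313 TPM, and 0 in both hearts in the other. Next in the size of the gap came Rpl28-ps1 (3704 and 3142 counts against 0 and 0), Rps12-ps3, Rpl31-ps8 (2186 and 1711 against 0 and 0) and Rpl27-ps3 (1425 and 1254 against 0 and 0). All 5 match the parent's coding sequence at every aligned base. Rpl36a-ps2, with 1035 and 911 counts against 0 and 0, belongs to the same kind.

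Rpl3-ps1 on chromosome X, a copy of the gene for a protein near the peptidyl transferase centre, was listed alike in both tables, at 5549 and 5042 counts against 5483 and 4602. Rpl17-ps5 was also close, at 1063 and 920 counts against 1147 and 956, although none of its 100-base windows was its own. Rpl14-ps1 had 1200 and 881 counts against 570 and 620, and Rpl36-ps12 had 320 and 366 against 177 and 192. Rpl3-ps1 and Rpl17-ps5 thus had little or no sequence of their own and like counts in both tables. Of the windows of Rpl17-ps5, 56.1% were found in the parent. Rpl14-ps1 and Rpl36-ps12 were higher in the gene table in both hearts.

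Rpl19-ps11 was the one abundant member with far more reads in the kallisto-layout table, at 2787 and 2285 counts there against 305 and 214 in the gene table. Its parent Rpl19 had 6428 and 5520 counts in the gene table and 1153 and 1164 in the other. The kallisto-layout table thus placed more reads on the copy than on the parent in both hearts. Rpl29-ps2 had the wider ratio in this direction but few counts, 18.6 and 34.3 against 0 and 1.24. Of the members with a mean count of at least 20 in either table, the next in this order were Rpl17-ps5, Rpl3-ps1 and Rps4x-ps, and the last 2 already had slightly more counts in the gene table. Rps4x-ps had 515 and 566 counts there against 489 and 535 in the other.

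Over all members, 42 were at least 4-fold higher in the gene table in both hearts (after adding 1 count), where 1.09% of all genes were. In the opposite direction 5 were at least 4-fold higher in the kallisto-layout table, where 4.55% of all genes were, among them Rpl19-ps11 and Rpl29-ps2. Among the 48 members with a mean count of at least 20 in either table, 32 (66.7%) were higher in the gene table, against 2.3% of all 16808 such genes and 26.9% of the other pseudogenes. The reverse held for 2 of the 48 (4.17%), against 6.04% of all such genes and 19.5% of the other pseudogenes. Of the 32, 22 had under 0.5 counts in both hearts in the kallisto-layout table. Of the 61 parents, 3 differed 4-fold in both hearts, Rpl19 and Rpl36 toward the gene table and Rpl27 toward the other. Further parents differed more than 2-fold in either direction. Examples are Rpl21 (log2 of gene table over kallisto-layout table -1.40 and -1.39) and Rplp1 (1.56 and 1.56).

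All but 1 of these 48 members pass the count limit in the gene table, and 22 are near 0 in the other, so the limit itself admits members on which the tables differ. As a description over these 48, which share libraries and in part sequences, the Spearman rank correlation of counts between the tables was 0.24 in replicate 1 and 0.29 in replicate 2. Over the 79 listed ribosomal protein genes, which are abundant in both tables, it was 0.71 and 0.70. Between the hearts within a table, the members' rank correlation was 0.99 in the gene table and 0.91 in the other.

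**Figure D2:**
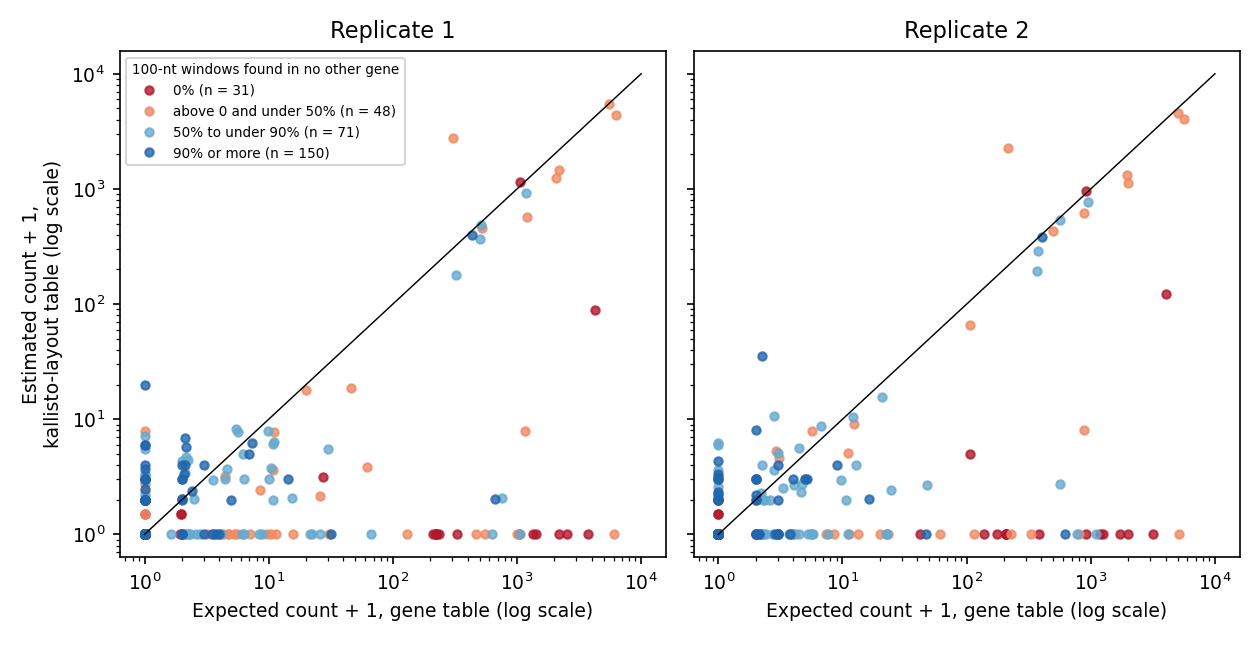
Counts of all 300 members in the kallisto-layout table against the gene table, 1 panel per heart, both axes as count + 1 on a log scale, coloured by the share of 100-base windows found in no other gene; the line marks equal counts. Most points along the bottom edge to the right, with 100 counts or more in the gene table and none in the other, have few or no windows of their own, and Rpl19-ps11 is the point far above the line.

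The tables were also compared by family. Family totals, members plus parent, lay within 1.25-fold of each other between the tables in both hearts for 42 of the 61 families with a parent in the annotation. The rest include families whose members had 0 counts in both tables, so that the parents alone differed. Examples are Rpl27a, with 1398 and 1300 counts in the gene table against 3728 and 3439, and Rps29, with 6297 and 5535 against 1573 and 1731. Summed over all families the totals were 342101 and 298906 counts in the gene table and 329067 and 289533 in the other. The members held at least 10% of their family in 21 families in the gene table and in 8 in the kallisto-layout table. In 18 of the 21 the family totals lay within 1.25-fold, and in 15 a single member held over 90% of the members' counts. In most of these families the tables thus gave like totals and divided them differently.

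In the Rps23 family the members held 74.8% ± 1.37 of the counts in the gene table and 1.87% ± 0.512 in the other (SD, n = 2). The Rpl27 family stood at 73.6% ± 0.139 and 0%, the Rpl10 family at 69.6% ± 0.896 and 0.167%, and the Rpl28 family at 64.3% and 0.0733%. These 4 parents had fewer counts than their copies in the gene table. So did Rps12 and, by a narrow margin, Rps2, whose members held 50.5% in the gene table and 37.4% in the other. Intermediate shares were found for Rps12 at 56.1% ± 2.63 against 10.1%, and for Rpl31 at 33.6% against 0.148%. Close shares were found for Rpl3 (43.5% and 41.1%), Rpl17 (20.6% and 20.9%) and Rps13 (47.7% and 38.4%). The Rpl19 family was opposite, with 4.33% ± 0.494 in the gene table and 68.7% ± 3.11 in the other. The Rpl36 share also rose, from 11.2% to 31.4%, but its members had fewer counts in the kallisto-layout table (177 and 192 against 358 and 416). Rpl36 itself had 392 and 412 counts there against 3256 and 2935. Totals of the Rpl27, Rpl19 and Rpl36 families lay outside 1.25-fold. Their log2 ratios of gene table over kallisto-layout table were -0.80 and -0.82, 0.77 and 0.73, and 2.66 and 2.47.

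The largest families did not have the largest shares. The 24 members of the Rpl31 family included 13 at 0 counts in both hearts, and Rpl31-ps8 alone reached a TPM of 1 in both. The Rps12 family had 14 of 24 at 0 and 3 at a TPM of 1 or more. Rpl21 copies summed to 26.1 and 12.5 counts beside 1940 and 1761 on Rpl21, and none of the 15 reached a TPM of 1 in both hearts. Rpl23a copies summed to 137 and 122 counts with 10 of 14 at 0. Rps19 copies summed to 543 and 510 counts, of which Rps19-ps6 held most.

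**Figure D3:**
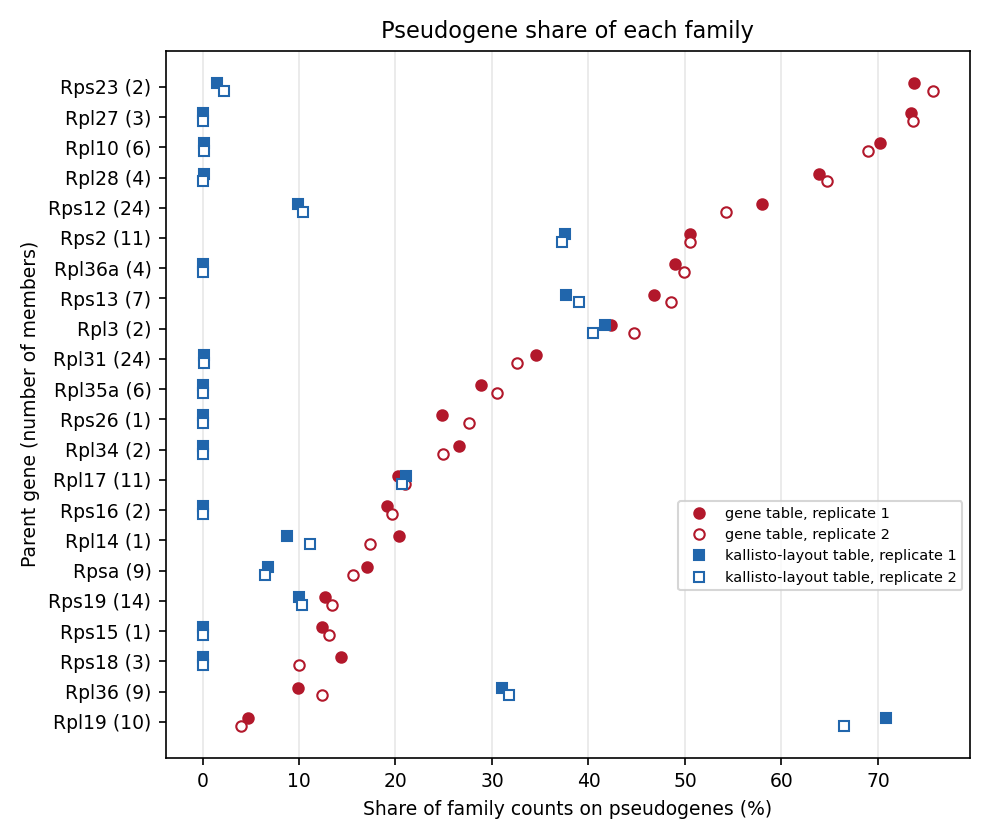
Share of family counts (members plus parent, in %) that lay on pseudogenes, for the 21 families with at least 10% in the gene table and the Rpl19 family, with the number of members in parentheses; circles are the gene table and squares the kallisto-layout table, filled for replicate 1 and open for replicate 2. The gene table runs from about 75% in the Rps23 family downward, while 11 families lie near 0 in the other table and the Rpl19 and Rpl36 families lie higher there.

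Members with little sequence of their own held most of the counts. Of the 31 members with no window of their own, 16 reached a TPM of 1 in both hearts, as did 16 of 48 with under 50%, 13 of 71 with 50% to under 90%, and 4 of 150 with 90% or more. These classes held 35.9%, 51.5%, 10.2% and 2.32% of the member counts in the gene table. In the kallisto-layout table they held 6.09%, 81.1%, 10.3% and 2.53%. Of the 13 members with every window in the parent, 10 reached a TPM of 1 in both hearts in the gene table and 9 of the 10 that were 4-fold higher there had under 0.5 counts in the other table. Of the members that keep a full-length reading frame, 31 of 98 (31.6%) reached a TPM of 1 in both hearts in the gene table, and of the others 18 of 202 (8.91%). In the kallisto-layout table these counts were 11 and 9, and the difference was not tested. The median identity to the parent was 98.5% with the frame and 94.9% without. Frame, identity and shared sequence go together in these members and cannot be told apart.

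A small group of members lay within 2-fold between the tables and had sequence of its own. Rps12-ps10, Rpsa-ps2, Rpl36-ps12, Rps4x-ps and Rpl7-ps7 reached a TPM of 1 in both hearts in both tables, lay within 2-fold between them, had at least 50% of windows to themselves and a posterior SD of at most 10%. These limits were chosen after values were seen. Rpsa-ps2, a copy on chromosome 10 of the gene for the laminin receptor protein of the small subunit, had 1185 and 953 counts in the gene table and 923 and 763 in the other. Rps4x-ps, an autosomal copy of the X-linked Rps4x, lies on chromosome 5 and had the counts given above. Rpl7-ps7, on the same chromosome, had 503 and 378 counts against 364 and 286. Identity to the parent in this group ran from 97.8% to 99.1%. That at least 50% of their windows differ from the parent follows from the limit on windows. Without the limits on windows and posterior SD, 11 members met the rest.

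Rps15-ps2 shows that own sequence did not always go with a match between tables. With 94.99% of its windows to itself it had 669 and 620 counts in the gene table, and 1.01 and 0 in the other. Rpl28-ps3, with 83.3% of windows its own, had 756 and 778 counts against 1.05 and 0. Both carry bases of their own in most windows, and the reason for the gap was not tested.

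The gene table gives its own measure of doubt, a posterior SD of each count. Over protein-coding genes with a posterior mean of at least 10 counts its median was 0% of the mean, so it does not hold the counting error of the reads. Over members it had a median of 15.8% of the posterior mean (n = 65 members) in replicate 1 and 16.7% (n = 64) in replicate 2. Parents stood at 0.767% and 0.829%, other pseudogenes at 8.08% and 8.03%. At posterior means of 10 to 100 counts the members' median was 37.0% and 37.1%, against 11.4% and 10.2% in other pseudogenes. At 100 to 1000 counts it was 10.7% and 8.18%, against 6.14% and 6.29%. At 1000 counts or more it was 3.63% and 3.15%, against 2.12% and 2.06%. Members were therefore listed with more doubt than other pseudogenes of like counts in each of these ranges.

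The lowest posterior SD percentages among members with a posterior mean of at least 100 counts in both hearts belonged to Rps15-ps2 (0.607% and 0.647%), Rps23-ps1 (0.799% and 0.752%), Rpl28-ps1 (1.09% and 1.18%), Rps12-ps10 (1.41% and 1.33%) and Rps2-ps13 (1.47% and 1.64%). The first 3 of these 5 were at least 4-fold lower in the kallisto-layout table. Of 38 members with a posterior mean of at least 100 in replicate 1, 19 had an SD under 5%, and 10 of those 19 were 4-fold higher in the gene table. In replicate 2 it was again 10 of 19, out of 39 members. Small posterior SDs were thus found among members on which the tables differed and among others.

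At the other end, Rpl35a-ps2, Rpl35a-ps3, Rpl35a-ps4 and Rpl35a-ps6, on chromosomes 1, 17, 2 and 5, were each listed at 222.46 counts in replicate 1 and at 208.10 in replicate 2. Their posterior SDs ran from 63.7% to 77.2% in replicate 1 and from 69.3% to 100% in replicate 2. All 4 had 0 counts in the kallisto-layout table, none has a 100-base window of its own, and the values were the same to the last digit given. Rpl7a-ps11 on chromosome X followed with 55.1% and 61.8%. Its expected counts were 26.3 and 106, while its posterior means were 678 and 748, so the columns of one table also differed for this member. Rpl27-ps3 had 40.9% and 61.1% at more than 1000 counts. Across the 61 aligned members with a posterior mean of at least 10, which share reads within families, the Spearman correlation of the SD percentage was -0.20 and -0.24 with the share of own windows and 0.02 and 0.06 with identity. The SD percentage also falls with the count, which these correlations leave out, so they do not isolate shared sequence or identity.

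**Figure D4:**
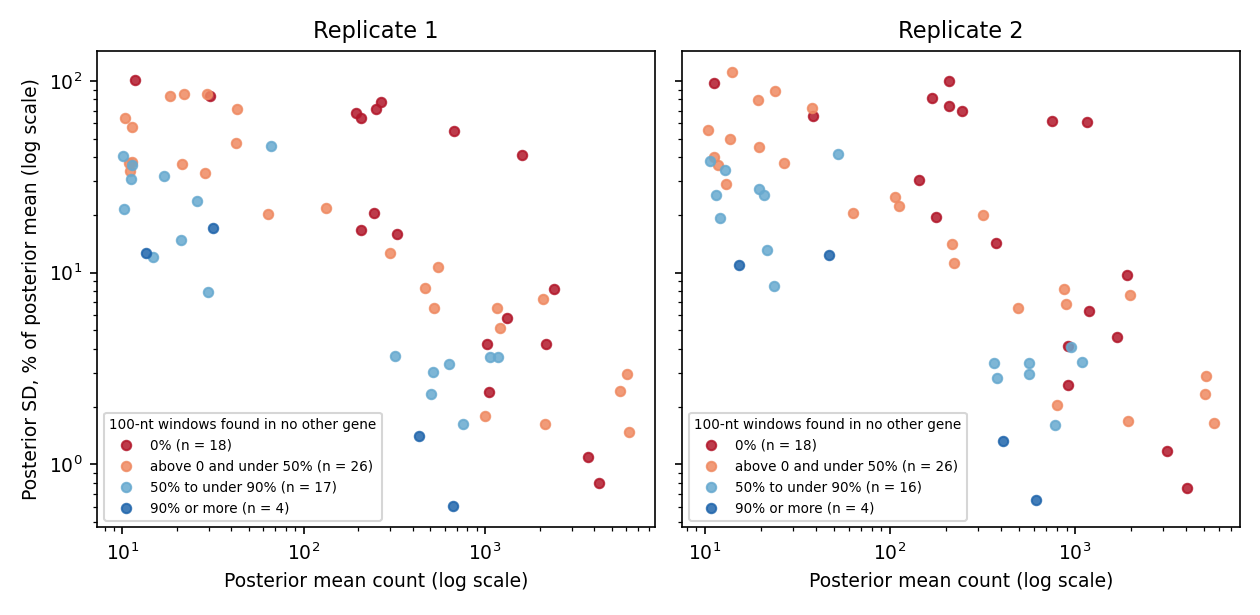
Posterior SD as % of the posterior mean count against that mean for members with a mean of at least 10 counts, 1 panel per heart, both axes on a log scale, coloured by the share of 100-base windows found in no other gene. The percentage falls with the count in both hearts, and the members above 50% at more than 100 counts have no window of their own.

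Between the hearts, the abundant members hardly differed. The 15 members with a mean of at least 1000 counts had log2 ratios of replicate 2 over replicate 1 between -0.34 and 0.16. The median over the 53 members tested was -0.04, and over all genes tested it was -0.0031. A member was called when its scaled counts differed 2-fold or more, its mean TPM was 1 or more, its counts summed to 20 or more, and the exact 95% binomial interval of the ratio left out equality. This sets one library against the other, with no check by replicates. It called 5 of 53 members (9.43%), against 0.86% of all genes, 6.28% of the other pseudogenes and 0 of 61 parents. Of the 5, Rpl15-ps3 and Rpl30-ps9 pass the limits on level only through the heart in which they are listed, so the share called depends in part on those limits. By direction, 3 were higher in replicate 2, as were 0.324% of all genes, and 2 were higher in replicate 1, as were 0.537% of all genes.

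Rpl17-ps3 had 45.2 counts in replicate 1 and 105 in replicate 2 (log2 1.32, interval 0.81 to 1.87), and it was the only member called in the kallisto-layout table too, at 17.6 and 64.6 counts (1 of 17 members tested, against 1.02% of all genes). Rps25-ps1 had 24.96 and 9.99 counts (log2 -1.17, interval -2.44 to -0.10). With posterior means in place of expected counts, these 2 were the members called, of 58 tested, against 0.809% of all genes. Rpl15-ps3 had 0 and 41.1 counts, but its posterior means were 30.5 and 38.2. Rpl30-ps9 had 29.9 and 0 counts, with posterior means of 43.2 and 38.2. Rpl7a-ps11, with the counts given above, had a log2 ratio of 2.12 (interval 1.51 to 2.82). The called members had posterior SDs of 23.6% to 83.8% in replicate 1, against a median of 7.61% over the 48 tested and not called. Scaling by the spike-ins moved the median of all genes by 0.13 (log2), and with it 1 member was called higher in replicate 1 and 4 in replicate 2. That scaling ended the call of Rps25-ps1 and added one for Rpl36a-ps1, at 8.78 and 18.95 counts.

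Rpl9, the parent of 9 members, had 10733 and 6019 counts (log2 -0.73), the largest difference among the 79 listed genes, and 11475 and 6537 in the kallisto-layout table. Rpl9-ps6 had 467 and 226 counts (log2 -0.94), short of the 2-fold limit, and 0 in both hearts in the kallisto-layout table. Parent and copy were thus both lower in replicate 2. Their sequences match at 99.8% of aligned bases, and how far reads were shared between them was not tested.

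**Figure D5:**
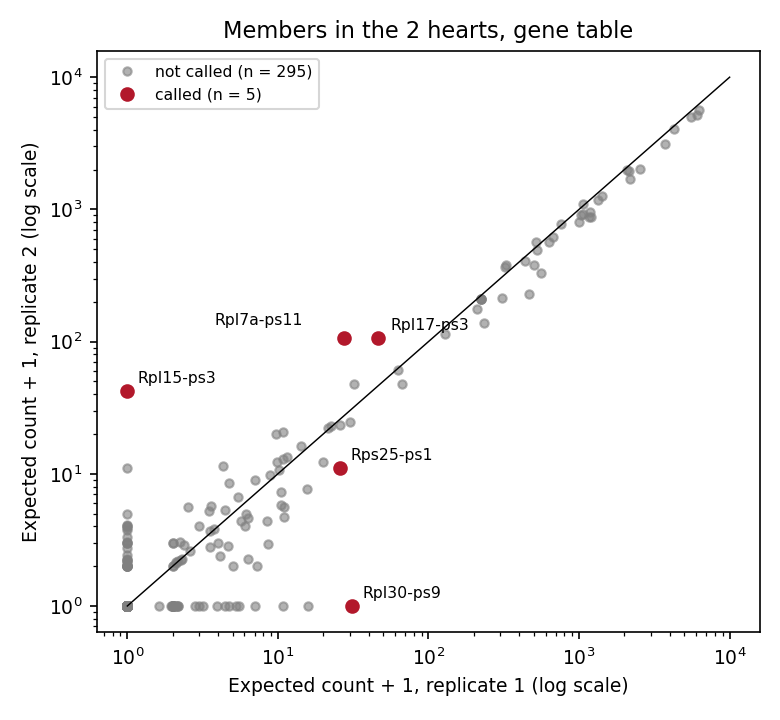
Expected count + 1 of each of the 300 members in replicate 2 against replicate 1 in the gene table, on log scales, with the line of equal counts and the 5 called members in red. The abundant members lie along the line, and the called ones have at most 106 counts.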

How the data were processed

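Total RNA was sequenced from 2 mouse heart libraries. The deposited gene tables hold estimated (expected) counts, TPM, and posterior means and SDs of the counts, and the deposited kallisto-layout tables hold estimated counts and TPM per transcript. Both rest on the mm10 build and annotation M21, per the labels and the notes deposited with the files. By those notes the gene tables were derived from alignments to the transcriptome, and the kallisto-layout tables directly from the reads and a further file. Not given in the sources used here are the programs, their versions and the handling of reads that match several genes. Expected counts totalled 36175363 and 32509660, and kallisto-layout counts 36129552 and 32799096, in replicates 1 and 2.

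Kallisto-layout values were summed per gene. Symbols, classes, positions and transcripts came from GENCODE M21. The members, lists and most rules were chosen with earlier results of these data known. Named members were the 10 highest by TPM in each quantification, those called between the hearts, the 5 largest differences between quantifications each way (mean count of at least 20), the 5 lowest and 5 highest posterior SD percentages (posterior means of at least 100), and the 5 parents with most members, with the parents of all these. Others were named after their values were seen. Coding sequences were aligned with Biopython 1.88. Rounded counts were scaled by TMM (edgeR 4.0.16, R 4.3.3), with a prior count of 0.5 and exact 95% Clopper-Pearson intervals, which cover counting error only. Tables were handled with pandas 2.3.3, numpy 2.4.6 and scipy 1.17.1 under Python 3.11.15. Alternatives were DESeq2 1.42.0 size factors, total and spike-in scaling, other filters and folds, posterior means, TPM, each replicate alone and the processed pseudogene class alone. Alleles of the parental strains were not analysed here. Some members are counted but not named or reported singly.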

Additional observations from a re-analysis of the deposited data

How the results depend on the processing

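The kallisto-layout table gave 20 members at a TPM of 1 or more in both hearts in place of 49, a share of all counts of 0.0553% in place of 0.146%, a share of family counts of 6.17% in place of 15.7%, and 1 member called between the hearts in place of 5. On the TPM scale the share of the total was 0.430% and that of the families 18.1%, and posterior means gave 15.8% for the families. Between the hearts, 9 members were called with no filter, 1 at a mean TPM of at least 5, 3 at 4-fold and 2 with posterior means. DESeq2 size factors, total counts and the processed class alone gave 5, 6 and 5. Spike-in scaling also gave 5, without Rps25-ps1 and with Rpl36a-ps1, and of all genes called it left 46.9% higher in replicate 1 in place of 62.4%, and it moved the median of all genes by 0.13 (log2). Members 4-fold higher in the gene table numbered 27 with an added count of 10 in place of 42. The 5 in the other direction became 1 with that added count, 11 at 2-fold, 2 at 8-fold, 2 at a mean count of at least 20 and 3 in the processed class. The median posterior SD was 6.02% and 5.49% at posterior means of at least 50 and 100, and 13.1% over the expected count, in place of 16.3% averaged over the hearts. Chosen after seeing the data, a limit of at least 50% own windows left 17 members at a TPM of 1 and 14 higher in the gene table, and without the Rps23, Rpl27, Rpl10 and Rpl28 families the family share was 11.7%.

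From each replicate alone, 55 to 57 members reached a TPM of 1 and 174 to 176 had 0 counts, the shares were 0.144% to 0.148% and 15.6% to 15.7%, 50 to 53 members were 4-fold higher in the gene table and 6 to 8 in the other, and the median posterior SD was 15.8% to 16.7%. The comparison between the hearts cannot be given from a single heart. No paired analysis was possible because the libraries form 1 group and share no replicate number with another.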
